A study of Mus musculus with 9 samples.

Results

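S100a8, S100a9, Retnlg, Csf3r, Il1r2 and Mmp8 are 6 genes widely used to mark neutrophils, and they were followed here through 9 mouse tumours. They were taken by symbol from a deposited table of 34745 genes, each matched 1 row, and all 6 had enough counts to be among the 14506 genes tested. The tumours were LLC (Lewis lung carcinoma, a transplantable C57BL/6 lung cancer line) grown under the skin of male wild-type C57BL/6 mice, which were randomised when tumours reached about 100 mm3 (the labels give the age of the mice as 6 to 8, without a unit). There were 3 groups of 3 tumours, all given by intraperitoneal injection: isotype antibody at 10 mg/kg, an antibody against PDL1 (the T cell checkpoint ligand) at 10 mg/kg, and anti-PDL1 at 10 mg/kg together with BTZ (bortezomib, a proteasome inhibitor) at 0.5 mg/kg. No group received BTZ alone, so BTZ is seen only on top of anti-PDL1. The control libraries carry the title Blank, and they are called isotype here after their treatment label.

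Neutrophils are short-lived granulocytes that leave the bone marrow under the growth factor G-CSF and enter tissue along gradients of CXCR2 ligands. In tumours they can kill cells, remodel matrix or restrain T cells, and each cell holds little RNA. S100a8 and S100a9 encode the subunits of calprotectin, an abundant calcium- and zinc-binding protein of the neutrophil cytosol that is released as an alarm signal. Retnlg encodes a resistin-like secreted protein of mouse myeloid cells. Csf3r encodes the receptor for G-CSF, Il1r2 a decoy receptor that binds interleukin-1 without signalling, and Mmp8 the neutrophil collagenase. Monocytes also make S100a8, S100a9 and Csf3r, and stressed keratinocytes make S100a8 and S100a9, so none of these 3 is specific to neutrophils. Whether Retnlg, Il1r2 and Mmp8 came only from neutrophils in these tumours was not tested.

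All 6 genes are protein-coding, and positions are those of the deposited table on mm10. S100a8 (ENSMUSG00000056054) spans 90668978 to 90670035 on the plus strand of chromosome 3, and S100a9 (ENSMUSG00000056071) spans 90692632 to 90695721 on the minus strand, 22.6 kb further along. Retnlg (ENSMUSG00000022651) lies on chromosome 16 from 48872608 to 48874498, plus strand. Csf3r (ENSMUSG00000028859) lies on chromosome 4 from 126024550 to 126044440, plus strand. Il1r2 (ENSMUSG00000026073) lies on chromosome 1 from 40074079 to 40125231, plus strand, and overlaps the predicted genes Gm16894 and Gm37347, so its counts could be shared with them. Mmp8 (ENSMUSG00000005800) lies on chromosome 9 from 7558429 to 7568486, plus strand.

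The promoters of the 6 genes were read because several of the genes varied together over the tumours. RefSeq promoters (GRCm38.p6, the assembly that mm10 stands for) were found for 6 of 6, and the 250 bases before each start were searched on both strands for 3 motifs of myeloid transcription factors: GAGGAA (PU.1), TTGCNNAA (C/EBP) and TTCNNNGAA (STAT). No matches overlapped. GAGGAA was in the promoters of S100a8, Csf3r and Mmp8, against 23.3% of all 32851 promoters searched the same way. TTGCNNAA was in those of S100a9, Retnlg and Mmp8, against 9.56%. TTCNNNGAA was in that of Il1r2, against 7.02%. The RefSeq starts of S100a8, Csf3r and Il1r2 lie inside the genes as the table gives them, and so do the Csf3r and Il1r2 matches and 1 of the 2 S100a8 matches. A match is only a match of letters in this window. The stretches just before the genes of the 3 members whose values differed most between groups, S100a8, S100a9 and Retnlg, and that of Mmp8, the gene with 2 of the motifs, follow from 5′ to 3′, with motif matches in capitals (TTCCTC is GAGGAA on the other strand, TTGCTTAA and TTGCTCAA are TTGCNNAA, and TTCTGCAA is TTGCNNAA on the other strand). S100a8 has 2 GAGGAA matches, of which the stretch shown holds 1.
S100a8 (chr3:90668821-90668977, plus strand): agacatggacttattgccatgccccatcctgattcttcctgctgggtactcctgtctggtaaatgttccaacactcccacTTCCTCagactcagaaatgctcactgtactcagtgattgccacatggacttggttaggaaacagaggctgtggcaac
S100a9 (chr3:90695722-90695971, minus strand): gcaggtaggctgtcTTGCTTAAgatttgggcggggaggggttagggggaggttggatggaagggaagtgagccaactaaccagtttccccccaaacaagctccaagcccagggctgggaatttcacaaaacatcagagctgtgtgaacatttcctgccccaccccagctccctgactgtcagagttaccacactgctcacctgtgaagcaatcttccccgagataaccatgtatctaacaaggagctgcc
Retnlg (chr16:48872358-48872607, plus strand): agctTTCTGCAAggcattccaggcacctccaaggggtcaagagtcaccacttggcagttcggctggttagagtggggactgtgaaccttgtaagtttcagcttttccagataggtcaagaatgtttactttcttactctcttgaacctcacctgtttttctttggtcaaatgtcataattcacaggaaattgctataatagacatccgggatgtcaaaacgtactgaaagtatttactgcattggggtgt
Mmp8 (chr9:7558179-7558428, plus strand): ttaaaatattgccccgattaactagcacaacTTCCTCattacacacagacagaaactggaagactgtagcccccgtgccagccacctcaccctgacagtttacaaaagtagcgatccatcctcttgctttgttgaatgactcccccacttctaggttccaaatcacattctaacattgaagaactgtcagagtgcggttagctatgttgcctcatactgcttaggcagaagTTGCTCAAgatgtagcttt

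The 9 libraries held 18.52 M to 21.51 M counts. CPM is counts scaled by library size and TMM factor. FPKM, which also divides by transcript length, is used to set genes side by side, for marker sums, for ratios within a tumour and in some alternative fits. The defining neutrophil gene Ly6g, a surface protein restricted to this lineage in mice, checked the name of the set. It had 4, 0 and 3 counts in the isotype tumours, 1, 7 and 2 in the anti-PDL1 tumours and 0, 0 and 0 in the BTZ+anti-PDL1 tumours, too few to be tested. The check was therefore not decisive. A count of 0 allows up to 0.160 CPM (3 counts in the shallowest such library). Cxcr2, the chemokine receptor of mature neutrophils, was present at 1.87 to 7.53 CPM. Of the primary and secondary granule genes of neutrophil precursors, Elane, Mpo, Prtn3, Ctsg, Camp, Ngp, Ltf, Fcnb and the regulator Cebpe were all too low to test, none above 0.377 FPKM in any tumour. Other genes of the same list were tested, among them Lcn2, at 0.0999 to 1.31 FPKM, and Chil3, at 2.03 to 5.78. The 8 neutrophil-defining genes (the 6 members, Ly6g and Cxcr2) summed to 41.7 to 97.1 FPKM in isotype, 54.9 to 78.0 in anti-PDL1 and 22.1 to 47.8 in BTZ+anti-PDL1 tumours. The 10 monocyte and macrophage genes summed to 375 to 762, 668 to 813 and 650 to 793 FPKM in the same order. The set was thus measured in RNA where macrophage genes outweighed neutrophil genes.

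Other tissues were uneven between tumours. Skeletal muscle genes summed to 2.41 to 1045 FPKM in isotype, 41.0 to 418 in anti-PDL1 and 2.25 to 299 in BTZ+anti-PDL1 tumours. Keratinocyte genes summed to 7.82 FPKM in isotype replicate 3 and to at most 0.850 in the other 8 tumours. T cell genes summed to 1.09 to 9.97, 8.08 to 10.4 and 8.03 to 12.95 FPKM, mast cell and basophil genes to 10.7 to 24.4, 17.7 to 24.1 and 10.7 to 19.9, red blood cell genes to 112 to 205, 36.7 to 71.3 and 22.8 to 165, and platelet genes to 21.5 to 95.6, 17.6 to 70.0 and 19.2 to 47.1, each in the order isotype, anti-PDL1, BTZ+anti-PDL1. Eosinophil genes reached at most 0.625 FPKM and B cell genes at most 0.821. Isotype replicate 3 thus held the highest muscle and keratinocyte sums. Without it, S100a8, S100a9 and Retnlg differed by -0.58, -0.92 and -1.37 on the log2 scale between BTZ+anti-PDL1 and isotype. Without the 3 tumours richest in muscle RNA they differed by -0.63, -0.95 and -1.17, and by -1.01, -1.10 and -1.16 between BTZ+anti-PDL1 and anti-PDL1. In bulk RNA, fewer neutrophils, less RNA per neutrophil and lower levels in other cells that make these genes cannot be told apart.

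Per length, the calprotectin subunits were the strongest members. Over the 9 tumours S100a9 averaged 35.0 ± 16.3 FPKM (SD, n = 9), S100a8 8.06 ± 3.26, Csf3r 4.98 ± 1.496, Il1r2 3.32 ± 0.754, Retnlg 2.27 ± 1.13 and Mmp8 1.41 ± 0.568. S100a9 exceeded S100a8 and S100a8 exceeded Csf3r in 9 of 9 tumours each, Csf3r exceeded Il1r2 and Il1r2 exceeded Retnlg in 8 of 9 each, and Retnlg exceeded Mmp8 in 6 of 9. The means of S100a8 and Csf3r, of Il1r2 and Retnlg, and of Retnlg and Mmp8 differed by less than the larger SD of each pair. These SDs hold the variation that genes of the same tumours share, so they set no limit on the order within a tumour. S100a9 ranked 1241 of 34745 genes by mean FPKM and Mmp8 10678. The ratio of S100a9 to S100a8 lay between 2.84 and 4.93 in every tumour, and the pair made up 68.8% to 83.3% of the summed FPKM of the 6 genes.

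**Figure D1:**
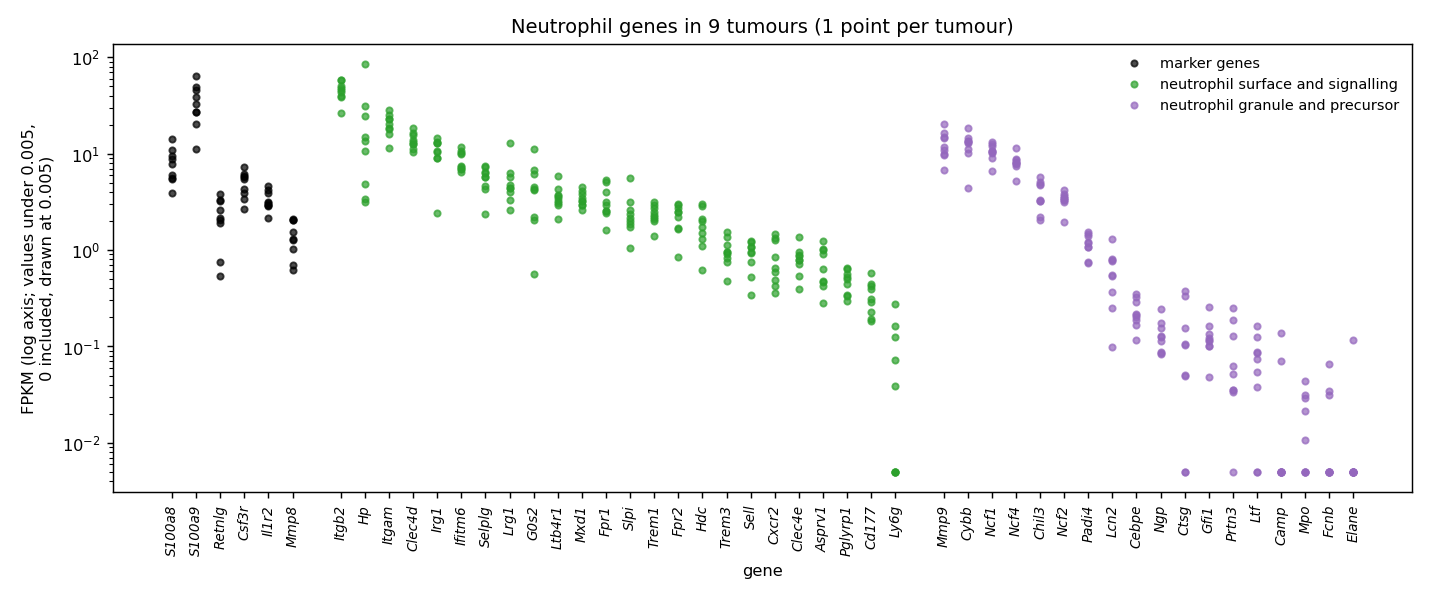
Levels of the members and of the genes of the neutrophil lists in FPKM on a log axis, each point 1 tumour and each colour 1 list; values under 0.005 FPKM, 0 included, are drawn at 0.005. S100a9 is the highest member, and Ly6g and the precursor granule genes Elane, Mpo, Fcnb and Camp lie at the bottom.

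S100a8 measured 9.34, 5.69 and 13.9 CPM in isotype replicates 1 to 3, 7.75, 8.73 and 10.9 in the anti-PDL1 tumours and 5.36, 3.79 and 5.93 in the BTZ+anti-PDL1 tumours. All 3 BTZ+anti-PDL1 values lay below all 3 anti-PDL1 values, while isotype replicate 2, at 5.69, lay inside the BTZ+anti-PDL1 range. The means were 9.63 ± 4.09, 9.13 ± 1.62 and 5.03 ± 1.11 CPM (SD, n = 3 each). Against anti-PDL1 the BTZ+anti-PDL1 level was 1.82-fold lower, a log2 difference of -0.86 ± 0.31 (SE; 95% interval -1.56 to -0.16), and edgeR's quasi-likelihood test gave an adjusted p of 0.819. Against isotype it was 1.91-fold lower, at -0.94 ± 0.31 (adjusted p 0.54 by edgeR), and -0.58 without isotype replicate 3. Between anti-PDL1 and isotype the difference was -0.08 ± 0.30 (interval -0.76 to 0.61; adjusted p 0.974 by edgeR).

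S100a9, the partner subunit, measured 33.3, 20.2 and 46.1 CPM in isotype, 28.3, 23.5 and 35.9 in anti-PDL1 and 14.5, 7.96 and 19.8 in BTZ+anti-PDL1 tumours. The BTZ+anti-PDL1 group did not overlap either other group, though its highest value and the lowest isotype value were 19.8 and 20.2. The means were 33.2 ± 12.96, 29.2 ± 6.22 and 14.1 ± 5.92 CPM (SD, n = 3 each). The BTZ+anti-PDL1 level was 2.07-fold below anti-PDL1 (log2 -1.05 ± 0.39 SE, interval -1.95 to -0.16; edgeR adjusted p 0.849) and 2.35-fold below isotype (-1.24 ± 0.39, interval -2.13 to -0.34; edgeR adjusted p 0.526), the latter -0.92 without isotype replicate 3. DESeq2, run as an alternative, gave the difference from isotype an adjusted p of 0.0335 and called it, in a comparison in which it called 0.732% of genes. Anti-PDL1 and isotype differed by -0.18 ± 0.38 (interval -1.06 to 0.69; edgeR adjusted p 0.943).

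Retnlg measured 2.05, 1.29 and 2.30 CPM in isotype, 1.60, 1.32 and 1.97 in anti-PDL1 and 0.450, 0.321 and 1.14 in BTZ+anti-PDL1 tumours. All 3 BTZ+anti-PDL1 values lay below the other 6, and they rested on 9, 6 and 22 counts against 26 to 44 in the other 6. The means were 1.88 ± 0.527, 1.63 ± 0.325 and 0.639 ± 0.443 CPM (SD, n = 3 each). The BTZ+anti-PDL1 level was 2.54-fold below anti-PDL1 (log2 -1.34 ± 0.47 SE, interval -2.39 to -0.30; edgeR adjusted p 0.819) and 2.92-fold below isotype (-1.55 ± 0.47, interval -2.59 to -0.50; edgeR adjusted p 0.507). Leaving out 1 tumour at a time, the first ranged from -2.06 (without BTZ+anti-PDL1 replicate 3) to -1.03. The second ranged from -2.26 to -1.23. Anti-PDL1 and isotype differed by -0.20 ± 0.44 (edgeR adjusted p 0.947).

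Csf3r, the receptor for G-CSF, had a different order of groups. It measured 21.8, 15.2 and 33.6 CPM in isotype, 31.9, 30.0 and 40.6 in anti-PDL1 and 23.5, 18.4 and 31.8 in BTZ+anti-PDL1 tumours. The mean was highest in anti-PDL1, at 34.2 ± 5.64 against 23.5 ± 9.28 in isotype and 24.6 ± 6.77 in BTZ+anti-PDL1 (SD, n = 3 each), and the groups overlapped in every comparison. The differences were 0.54 ± 0.30 for anti-PDL1 over isotype (SE; interval -0.15 to 1.22; edgeR adjusted p 0.776), -0.47 ± 0.30 for BTZ+anti-PDL1 over anti-PDL1 (interval -1.16 to 0.21; edgeR adjusted p 0.886) and 0.06 ± 0.30 for BTZ+anti-PDL1 over isotype (interval -0.62 to 0.75; edgeR adjusted p 0.959). The first was 0.31 without isotype replicate 2 and 0.88 without isotype replicate 3.

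Il1r2, the interleukin-1 decoy, had the narrowest range of the 6. It measured 7.29, 7.18 and 10.5 CPM in isotype, 7.35, 6.85 and 9.83 in anti-PDL1 and 6.71, 5.02 and 9.21 in BTZ+anti-PDL1 tumours, a 2.09-fold range over the 9 tumours. The group means were 8.33 ± 1.89, 8.01 ± 1.60 and 6.98 ± 2.11 CPM (SD, n = 3 each), and the groups overlapped throughout. The log2 differences were -0.05 ± 0.25, -0.20 ± 0.25 and -0.25 ± 0.25 (SE) for anti-PDL1 over isotype, BTZ+anti-PDL1 over anti-PDL1 and BTZ+anti-PDL1 over isotype, with edgeR adjusted p of 0.98, 0.941 and 0.799. The second was -0.01 without BTZ+anti-PDL1 replicate 2 and -0.45 without replicate 3 of that group.

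Mmp8, the collagenase, had the lowest mean FPKM of the 6. It measured 1.52, 3.32 and 5.02 CPM in isotype, 3.15, 3.76 and 5.01 in anti-PDL1 and 2.50, 1.71 and 5.05 in BTZ+anti-PDL1 tumours, from 29 to 107 counts. The means were 3.29 ± 1.75, 3.97 ± 0.949 and 3.09 ± 1.74 CPM (SD, n = 3 each). The log2 differences were 0.27 ± 0.48, -0.36 ± 0.48 and -0.09 ± 0.48 (SE) in the same order of comparisons, with edgeR adjusted p of 0.926, 0.942 and 0.964 and intervals as wide as -0.81 to 1.36 for the first. The second was -0.08 without BTZ+anti-PDL1 replicate 2 and -0.91 without replicate 3 of that group.

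**Figure D2:**
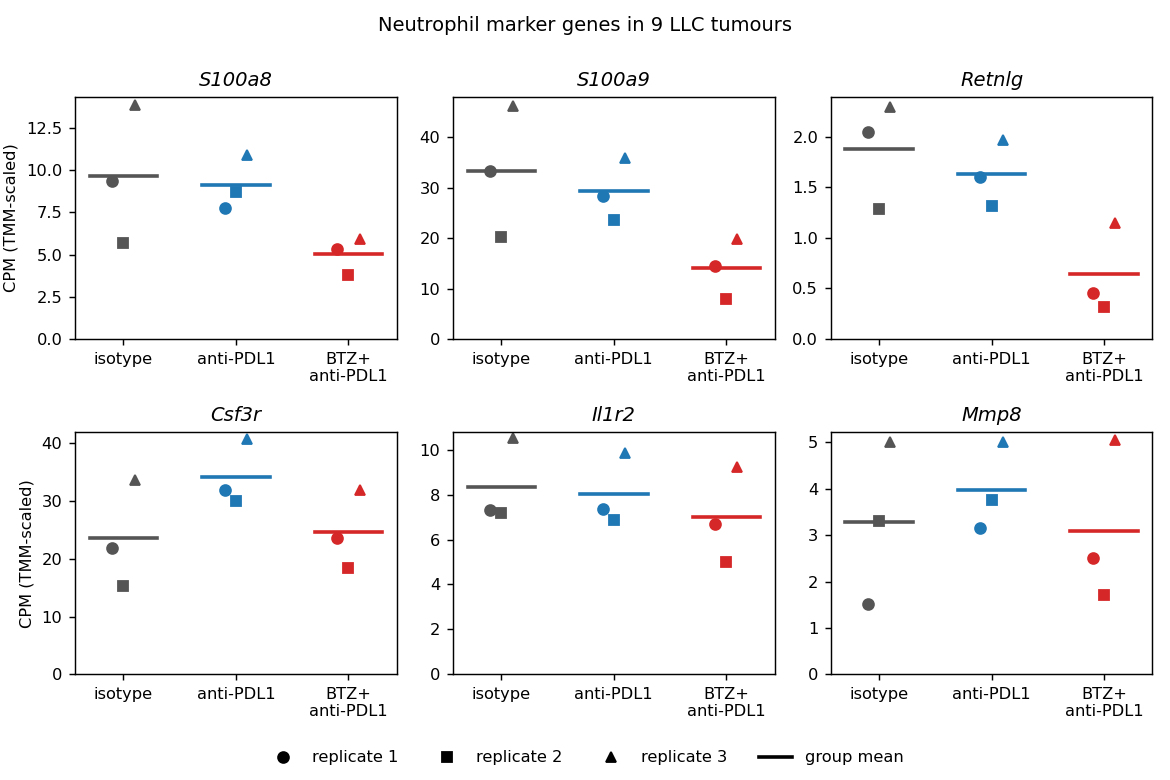
CPM of the 6 genes in each of the 9 tumours (TMM-scaled; symbols are replicates, bars group means). S100a8, S100a9 and Retnlg lie lower in the BTZ+anti-PDL1 tumours than in the anti-PDL1 tumours, while the groups overlap for Csf3r, Il1r2 and Mmp8.

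The question of the first comparison is the effect of checkpoint blockade on the genes, and no member was called at an adjusted p under 0.05. Over all genes edgeR called 0.0138% and DESeq2 0.098%. No member had an unadjusted p under 0.05 (6.35% of all genes did), and none had groups that did not overlap (12.7% of all genes). The median of the 6 log2 differences was -0.06, against -0.0034 over all genes, and 4 of 6 were below 0.

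The question of the second comparison is what BTZ added to anti-PDL1, and again no member was called by edgeR, which called 0.0138% of genes. DESeq2 called 0.461% of genes and no member. All 6 members were below 0, with a median log2 difference of -0.67 against 0.0029 over all genes. S100a8, S100a9 and Retnlg had an unadjusted p under 0.05 in this direction, against 2.67% of all genes, and the same 3 had groups that did not overlap, against 6.99%.

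In the comparison of the combination with isotype no member was called by edgeR, which called 0.00689% of genes, and DESeq2 called S100a9 among the 0.732% of genes it called. The median was -0.59 against -0.0011 over all genes, and 5 of 6 members were below 0, with Csf3r the exception. S100a8, S100a9 and Retnlg had an unadjusted p under 0.05 in this direction (4.18% of all genes), and S100a9 and Retnlg had groups that did not overlap (6.03%). Each pair of comparisons shares 1 group of tumours, so they are not independent. The 6 genes were chosen with results of these data known, so these counts are a description.

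**Figure D3:**
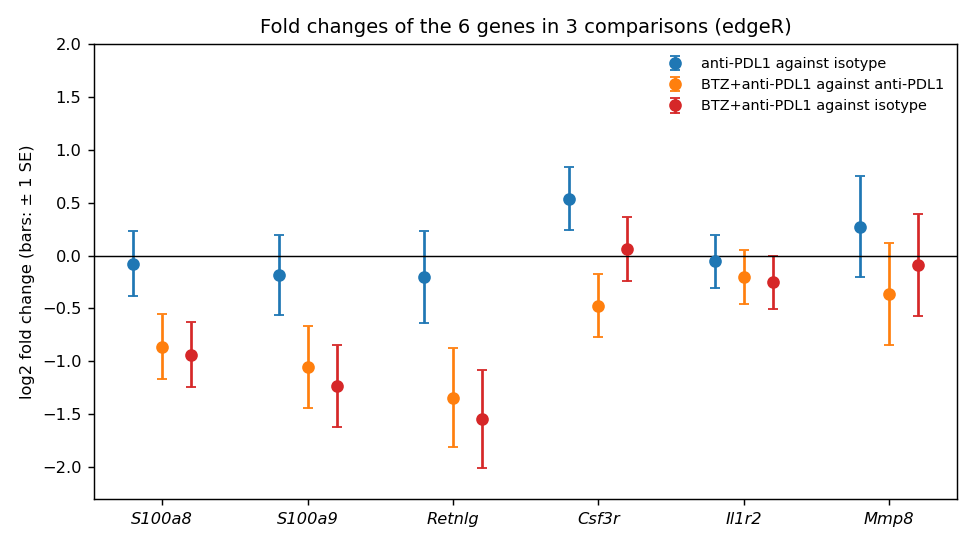
Log2 difference of each member in the 3 comparisons, with bars of 1 SE (edgeR). S100a8, S100a9 and Retnlg lie furthest below 0 in both comparisons with BTZ+anti-PDL1, and no difference passed the adjusted test.

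Because S100a8, S100a9 and Retnlg separated the BTZ+anti-PDL1 from the anti-PDL1 tumours while Csf3r did not, each member was also divided by Csf3r within a tumour, a ratio of FPKM that does not depend on scaling. This denominator was chosen after the values were seen. The S100a9 ratio was 11.6, 10.0 and 10.4 in isotype, 6.71, 5.94 and 6.70 in anti-PDL1 and 4.68, 3.27 and 4.71 in BTZ+anti-PDL1 tumours. The groups stepped down without overlap. The lowest anti-PDL1 value, 5.94 (95% exact binomial interval 5.25 to 6.72, counting error only), and the highest BTZ+anti-PDL1 value, 4.71 (4.13 to 5.36), had intervals that touch. The S100a8 ratio was 2.40, 2.09 and 2.32, then 1.36, 1.63 and 1.51, then 1.28, 1.15 and 1.04. Its smallest anti-PDL1 value, 1.36 (1.14 to 1.63), and its largest BTZ+anti-PDL1 value, 1.28 (1.03 to 1.58), are not separated by counting error. The Retnlg ratio was 0.851, 0.766 and 0.622, then 0.455, 0.399 and 0.440, then 0.174, 0.158 and 0.326, again without overlap of the values. Its nearest tumours are not separated by counting error at either step. Isotype replicate 3 was at 0.622 (0.448 to 0.845) and anti-PDL1 replicate 1 at 0.455 (0.309 to 0.649), and anti-PDL1 replicate 2 was at 0.399 (0.258 to 0.590) and BTZ+anti-PDL1 replicate 3 at 0.326 (0.203 to 0.499).

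A step from isotype to anti-PDL1 to BTZ+anti-PDL1 without overlap, downward, was seen in 4 of the 14505 tested genes other than Csf3r, or 0.0276%. They were S100a8, S100a9, Retnlg and Krt20, an epithelial keratin named after its values were seen. Csf3r became the denominator because it did not separate BTZ+anti-PDL1 from anti-PDL1 tumours as S100a8, S100a9 and Retnlg did. That choice favoured finding these members among the 4, so their place there is no support. Taken pair by pair, the ratio was lower without overlap in 14.3% of genes for anti-PDL1 against isotype, 0.586% for BTZ+anti-PDL1 against anti-PDL1 and 0.951% for BTZ+anti-PDL1 against isotype. The step from isotype to anti-PDL1 was thus common among genes, and the step from anti-PDL1 to BTZ+anti-PDL1 was not. Both shares carry the denominator, as Csf3r averaged 23.5, 34.2 and 24.6 CPM in isotype, anti-PDL1 and BTZ+anti-PDL1. A gene of equal level in all groups would have a ratio that falls and then rises, so the denominator itself makes a fall at the second step uncommon. S100a8 averaged 9.63 and 9.13 CPM in isotype and anti-PDL1, S100a9 33.2 and 29.2, and Retnlg 1.88 and 1.63. The first step of their ratios thus came mostly from the denominator. The Il1r2 ratios were 0.787, 1.11 and 0.737, then 0.543, 0.537 and 0.570, then 0.671, 0.642 and 0.681, so the BTZ+anti-PDL1 tumours lay between the other groups without overlap. The Mmp8 ratios, from 0.157 to 0.489, overlapped between groups. The ratios share 1 denominator and are not independent of each other. Between any 2 groups of 3 tumours an exact two-sided permutation test cannot go below p = 0.1, and no test of the order over 3 groups was made, since the ratio was chosen from these values.

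**Figure D4:**
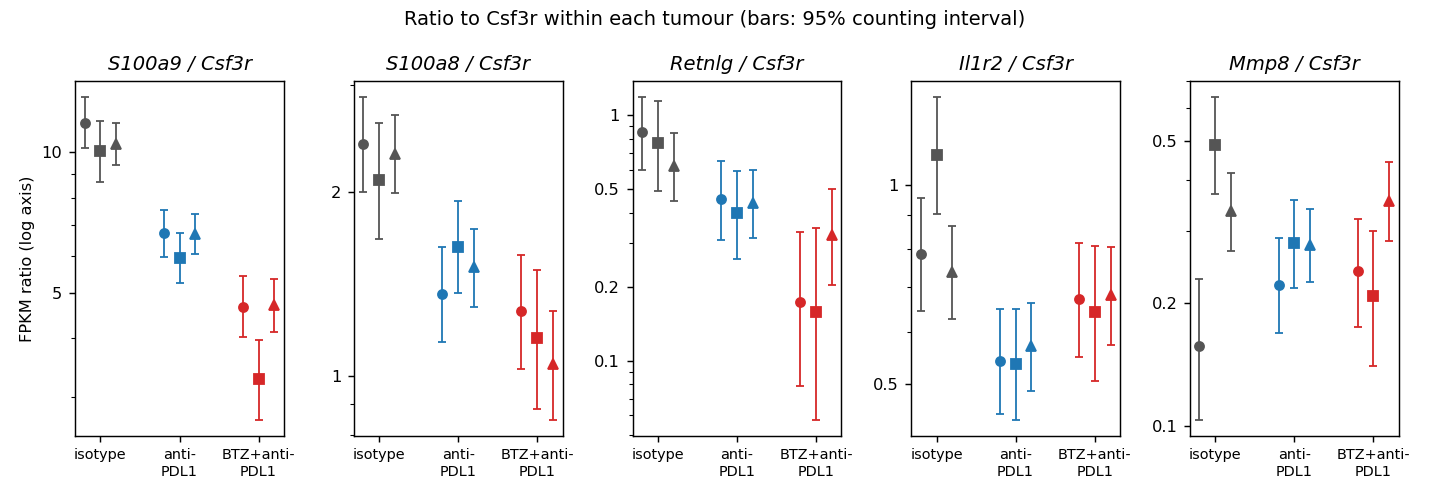
FPKM of 5 members divided by that of Csf3r in each tumour, with exact 95% counting intervals (circle replicate 1, square replicate 2, triangle replicate 3). The S100a9, S100a8 and Retnlg values step down over the 3 groups, while counting intervals of neighbouring groups overlap for some tumours of each gene.

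Over the 9 tumours several of the members varied together, most closely S100a8, S100a9 and Retnlg. Of 15 pairs, 7 had a Pearson r of log2 CPM with an exact permutation p under 0.05 after Benjamini-Hochberg adjustment over the 15, and 6 did by Spearman's rho. The closest was S100a9 with Retnlg, at r = 0.961 (exact permutation p = 8.27e-06, adjusted 0.000124; rho = 0.983, adjusted exact permutation p = 0.000744) and 0.934 without the 2 tumours farthest from the median of S100a9. S100a8 and S100a9 reached r = 0.959 (adjusted exact permutation p = 0.000393; rho = 0.967) and 0.919 without 2 tumours, and S100a8 with Retnlg 0.887 (adjusted exact permutation p = 0.00107; rho = 0.950) and 0.782. Il1r2 was in the other 4 of the 7 pairs. With S100a9 at 0.823, S100a8 at 0.772 and Retnlg at 0.764 its r was 0.424, 0.341 and 0.442 without the 2 farthest tumours. Leaving those out also narrows the range of values, which can lower r. For deviations from group means the r of these 3 pairs was 0.909, 0.796 and 0.876. Il1r2 with Mmp8 was at 0.794 over all tumours (adjusted exact permutation p = 0.0313; rho = 0.683, adjusted exact permutation p = 0.0839) and 0.657 without the 2 farthest. Retnlg with Mmp8 was lowest at r = 0.467 (exact permutation p = 0.197), and Mmp8 with S100a8 and S100a9 was at 0.479 and 0.493. Without the 2 farthest tumours the r of Mmp8 with S100a8, S100a9 and Retnlg was -0.0022, -0.045 and -0.178. Csf3r was in none of the 7 pairs, and by rho it passed only with Il1r2 (adjusted exact permutation p = 0.0431). The permutations ran over all 9 tumours without regard to group, so these p-values also take in differences between groups that genes share. The members were chosen with results of these data known, and no share over other gene pairs is given.

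The median r over the 15 pairs was 0.705, and 0.852 for deviations from group means, with 15 of 15 pairs above 0 within groups. Without the 2 farthest tumours 12 of 15 were above 0, with a median of 0.442 and a lowest value of -0.178. Csf3r with S100a8 had an r of 0.667 over all tumours and 0.958 within groups, and with S100a9 0.600 and 0.954. In each of the 3 groups the tumour numbered 3 had the highest value of all 6 genes, which holds for 3.43% of all tested genes. The labels do not state what the number marks, and its part in the correlations was not tested.

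The genes whose levels were most like the mean of the 6 members over 9 tumours, among 12215 genes with a mean of at least 1 CPM, were Hdc (histidine decarboxylase, made by mast cells, basophils and neutrophils; r = 0.970), Smarcd3 (0.937), Drp2 (0.922), Tgm1 (0.919), Blvrb (0.914), Mpzl3 (0.912), Tgfb1i1 (0.908, for ENSMUSG00000108631, 1 of 2 IDs of that symbol), Il1b (0.907), Slpi (a secreted protease inhibitor; 0.90) and Il1f9 (an interleukin-1 family cytokine; 0.90). Those 12215 were tested genes, without the members and without predicted loci (Gm, Rik and similar clone names). Their median r was -0.0025, and 9 of them had r of at least 0.9. Hdc and Slpi stand in the surface and signalling list below, and Il1b in the interleukin-1 list. Hdc was the gene most or second most like S100a8, S100a9, Retnlg and Il1r2 and was not among the 3 most like Csf3r (Trpv4, Sorl1, Lipo1) or Mmp8 (Calr3, Ripk3, Klhdc8b). Besides Hdc, S100a8 was most like Ifitm1 and Asprv1, S100a9 like Lcn2 and G0s2, Retnlg like Mpzl3 and Lcn2, and Il1r2 like Blvrb and Pim1. The points are the same 9 tumours, which differ in tissue content, and no p is given.

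**Figure D5:**
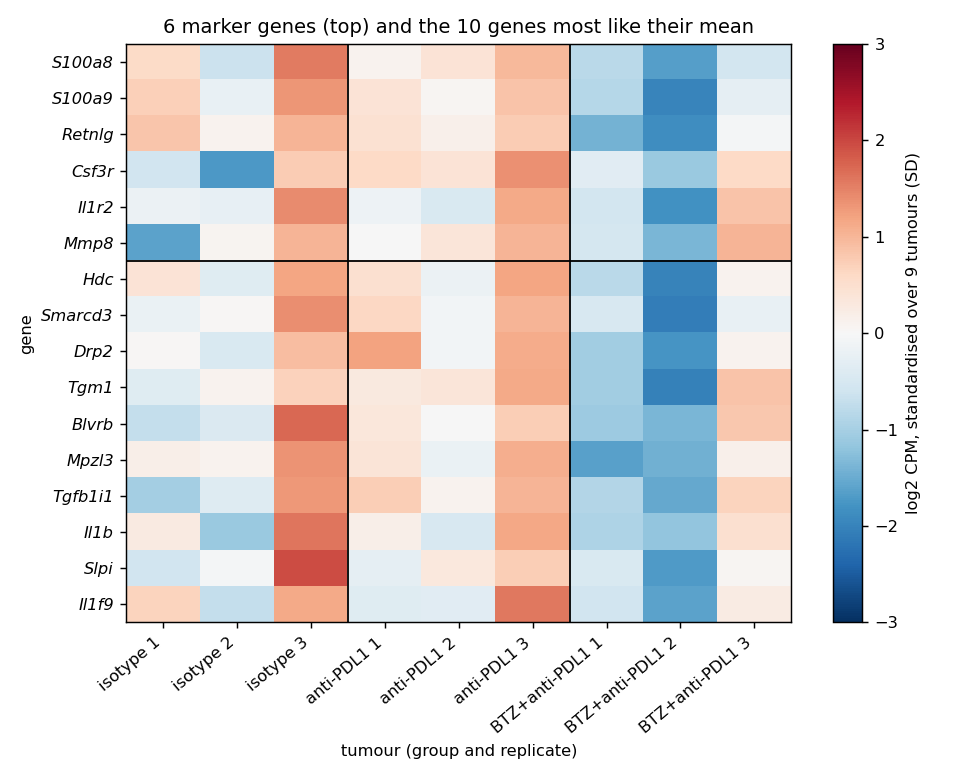
Log2 CPM of the 6 members (top) and of the 10 genes most like their mean, standardised per gene, in 9 tumours ordered by group. The 6 members are highest in replicate 3 of each group, and most rows are lowest in BTZ+anti-PDL1 replicate 2.

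Hdc measured 14.95, 10.2 and 21.95 CPM in isotype, 15.6, 11.3 and 21.8 in anti-PDL1 and 8.26, 4.59 and 12.9 in BTZ+anti-PDL1 tumours. Its BTZ+anti-PDL1 mean was lowest, but replicate 3 there exceeded the lowest tumour of both other groups. It had log2 differences of -0.92 ± 0.42 (SE) from anti-PDL1 and -0.87 ± 0.42 from isotype (edgeR adjusted p 0.863 and 0.616). Il1b, the cytokine that Il1r2 binds, measured 44.2, 26.0 and 73.2, then 42.4, 32.9 and 62.2, then 27.7, 25.2 and 47.9 CPM, with differences of -0.45 ± 0.43 and -0.51 ± 0.43. Lcn2, an iron-scavenging neutrophil granule protein, measured 2.62, 2.77 and 6.27, then 3.85, 3.96 and 3.75, then 1.20, 0.481 and 1.77 CPM. All 3 BTZ+anti-PDL1 values lay below the other 6, as for Retnlg. It differed by -1.74 ± 0.47 from anti-PDL1 and -1.75 ± 0.47 from isotype (edgeR adjusted p 0.634 and 0.458). Of all genes, 6.99% were lower without overlap against anti-PDL1 and 6.03% against isotype. Hdc, Il1b and Lcn2 are described because they ranked among the genes most like the members over these same tumours. A similar order of groups was thus built into their choice and is no separate support.

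The rest of the neutrophil programme was followed in lists, in which edgeR called no gene in any comparison. DESeq2 called no list gene for anti-PDL1 against isotype, Cxcl5 in both comparisons with BTZ+anti-PDL1, and Lcn2 against isotype. Over all genes an unadjusted edgeR p under 0.05 was found in 6.35% for anti-PDL1 against isotype, 5.82% for BTZ+anti-PDL1 against anti-PDL1 and 8.6% for BTZ+anti-PDL1 against isotype. Counts of list genes under that level are given below in this order. Of the surface and signalling genes 23 of 24 were tested, with 8 above and 15 below 0 in BTZ+anti-PDL1 against anti-PDL1 (median -0.06), 11 and 12 against isotype (-0.02) and 12 and 11 for anti-PDL1 against isotype (0.02). The unadjusted p was under 0.05 for 0, 1 and 2 of the 23. Its most abundant genes were Itgb2 (the integrin beta chain, 45.2 FPKM), Hp (haptoglobin, 21.2), Itgam (the integrin alpha chain CD11b, 20.4), Clec4d (13.8), Irg1 (also called Acod1, 10.5) and Ifitm6 (8.58). Itgb2 and Itgam, which macrophages share, differed by 0.42 ± 0.21 and 0.47 ± 0.23 from isotype in the combination, with edgeR adjusted p of 0.613 and 0.617.

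Of the granule and precursor genes 9 of 18 were tested, with 4 above and 5 below 0 against anti-PDL1 (median -0.04), 7 and 2 against isotype (0.26) and 7 and 2 for anti-PDL1 against isotype (0.25), and 1, 1 and 1 had an unadjusted p under 0.05. The most abundant were Mmp9 (gelatinase B, 12.7 FPKM), Cybb (12.5) and Ncf1 (10.6). The last 2, which macrophages share, encode subunits of the oxidase that makes the respiratory burst. Mmp9 differed by -0.04 ± 0.38 from anti-PDL1 and -0.11 ± 0.38 from isotype in the combination, Cybb by -0.16 ± 0.30 and 0.65 ± 0.31, and Ncf1 by 0.00 ± 0.19 and 0.29 ± 0.19.

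Of the recruitment and growth genes 11 of 13 were tested. In BTZ+anti-PDL1 tumours 10 of 11 were below 0 against anti-PDL1 (median -0.40) and 9 of 11 against isotype (-1.03), and 8 of 11 for anti-PDL1 against isotype (-0.57). An unadjusted p under 0.05 was found for 1, 1 and 2 of them. The CXCR2 ligand Cxcl1 (28.2 FPKM) differed by -0.56 ± 0.54 and -1.23 ± 0.54 in the combination, Ppbp (13.8 FPKM, a platelet chemokine) by -0.60 ± 1.08 and -1.16 ± 1.09, and Icam1 (7.76 FPKM, an endothelial adhesion molecule) by -0.17 ± 0.31 and 0.57 ± 0.32. Cxcl5, another CXCR2 ligand, named after its values were seen, measured 8.19, 9.65 and 12.0, then 2.95, 11.2 and 8.10, then 1.65, 1.66 and 2.45 CPM. It differed by -1.95 ± 0.44 and -2.37 ± 0.44 (edgeR adjusted p 0.494 and 0.224).

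In the interleukin-1 system 9 of 9 were tested, with medians of 0.05, -0.02 and 0.20 in the 3 comparisons and 1, 0 and 0 genes with an unadjusted p under 0.05. Il1r1, the signalling receptor (31.7 FPKM), Il1b (18.1) and Casp1, which activates it (10.3), were its most abundant genes. Casp1 differed by 0.54 ± 0.20 and Il1r1 by -0.18 ± 0.09 between anti-PDL1 and isotype. Of the calprotectin receptors 6 of 6 were tested, with medians -0.19, 0.08 and -0.26 and 2, 0 and 1 genes at that level. Bsg (72.8 FPKM), Cd14 (35.5) and Myd88 (12.9) were highest, and Cd14 differed by -0.44 ± 0.19 between anti-PDL1 and isotype. Of the other S100 genes 9 of 13 were tested, all 9 below 0 for anti-PDL1 against isotype (median -0.18) and 6 above 0 for the combination against anti-PDL1 (0.12), with median 0.00 against isotype and 1, 2 and 0 genes at that level. S100a4 (618 FPKM), S100a11 (357) and S100a6 (305) far exceeded S100a8 and S100a9 per length.

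Of the G-CSF signalling genes 14 of 14 were tested, with medians 0.12, 0.02 and 0.14 and 1, 2 and 1 genes at that level. Cebpb (38.2 FPKM), Jak1 (36.2) and Socs3 (29.6) were highest, and they differed by -0.24 ± 0.14, -0.11 ± 0.07 and -0.18 ± 0.16 between the combination and isotype. No member of the resistin family (Retn, Retnla, Retnlb) was tested. Of the collagen-cleaving proteases and inhibitors 8 of 8 were tested, with 8 of 8 below 0 against anti-PDL1 (median -0.21), 6 of 8 below against isotype (-0.34) and 4 of 8 below for anti-PDL1 against isotype (median 0.04), and 0, 0 and 1 at that level. Mmp3, a stromelysin at 306 FPKM, differed by -0.71 ± 0.53 and -0.95 ± 0.53 in the combination. Timp2 (131 FPKM), an inhibitor, differed by -0.06 ± 0.09 and 0.09 ± 0.09, and Mmp14 (115 FPKM) by -0.15 ± 0.12 and -0.00 ± 0.12.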

How the data were processed

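RNA-seq counts per gene and FPKM were deposited as 1 table for 9 tumours; per the submitters' processing notes the tools were HISAT2 2.0.4 and StringTie 1.3.3b, and the build mm10, with no roles stated. How genes were counted, with which annotation and strand setting, is not given in the sources used here. The deposited counts are raw whole numbers and were tested; the FPKM values, made by the authors, set genes side by side. Columns of the combination carry other names than their libraries and were assigned by treatment and number. With edgeR 4.0.16 (R 4.3.3), filterByExpr with minimum count 10 left 14506 of 34745 genes (13060 had no count), TMM scaled them, and 1 quasi-likelihood model of 3 group means gave 3 comparisons, called at adjusted p under 0.05. SE is the absolute log2 difference divided by the square root of F. Log2 CPM used a prior count of 2. Correlations were tested by exact permutation. DESeq2 1.42.0 and limma 3.58.1 were alternatives. Where a symbol had several IDs (Itgam, Flg), the ID with most counts was used. Named genes were all members, the 3 most abundant of each list (6 of the surface list) and the genes most like the members. The members and lists were chosen with earlier results of these data known. The replicates are separate tumours.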

Additional observations from a re-analysis of the deposited data

How the results depend on the processing

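Counts of genes called under other settings were as follows. With no filter on low counts 4 genes were called for BTZ+anti-PDL1 against anti-PDL1 and 6 against isotype. DESeq2 called 15, 61 and 109 in the 3 comparisons, in the order of the report, and 1 member, S100a9 against isotype at -1.24 (adjusted p 0.0335). A fit of only the 6 tumours compared called 12 for BTZ+anti-PDL1 against anti-PDL1 and 0 against isotype. limma on log2(FPKM + 1) and on log2(FPKM + 0.1) called 3 against isotype, and 0 with no filter. Without the 3 tumours richest in skeletal muscle RNA 0, 0 and 0 were called. Leaving out 1 tumour at a time gave 1 to 4, 1 to 7 and 0 to 20. Over all tested genes the replicate numbers showed no clear pairing of the tumours. Deviations of same-numbered tumours correlated between -0.434 and 0.393, and in 2, 2 and 0 of 6 tumours the best match had its own number. This check over all genes cannot exclude a shared order in the members, as all 6 were highest in replicate 3 of every group. With the number as a replicate block 1, 1 and 0 genes were called, and no member.

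S100a8, S100a9, Retnlg and Il1r2 stayed below 0 in both comparisons with BTZ+anti-PDL1 under all 18 alternatives. Il1r2 came as near to 0 as -0.011 against anti-PDL1 and -0.023 against isotype. Csf3r (-0.70 to -0.30) and Mmp8 (-0.91 to -0.075) also stayed below 0 in BTZ+anti-PDL1 against anti-PDL1. Anti-PDL1 against isotype changed sign without some tumours: S100a8 ranged from -0.34 to 0.28, S100a9 from -0.43 to 0.13, Il1r2 from -0.23 to 0.15 and Mmp8 from -0.060 to 0.71, as did Csf3r (-0.16 to 0.41) and Mmp8 (-0.63 to 0.35) in BTZ+anti-PDL1 against isotype. Without the muscle-rich tumours S100a8, S100a9 and Il1r2 became 0.39, 0.15 and 0.21 for anti-PDL1 against isotype and Mmp8 0.48 for BTZ+anti-PDL1 against isotype. S100a8 was 0.0013, 0.0099 and 0.0013 for anti-PDL1 against isotype on the 3 FPKM settings. The cause was not tested. Retnlg, with as few as 6 counts, is limited by depth.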
